A study of Mus musculus with 4 samples.

Results

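The enzymes that make and remove the second messengers of phosphoinositide signalling were examined in hypoxic TKPTS cells, as 10 genes of the 22063 listed in the count table. They were the inositol trisphosphate 3-kinases *Itpka*, *Itpkb* and *Itpkc*, the phospholipases C *Plcb3*, *Plcg1* and *Plcg2*, the diacylglycerol kinases *Dgkd*, *Dgke* and *Dgkz*, and the phosphoinositide kinase *Pikfyve*. These genes were chosen by name from values of the comparison described here, the counts in cells transfected with *Itgb6* siRNA against those in control cells. Their differences are therefore given as a description with no test. All 10 were in the table and all 10 passed the filter on low counts, which kept 11727 genes. TKPTS cells, called TKPT in the sample labels, are a mouse proximal tubule cell line, with the genotype given as wild-type. Every library came from cells held for 24 h at 1% O2 and 5% CO2 and then returned to normal oxygen for 12 h. The 2 control libraries carried the scrambled siRNA (si-NC, replicates 2 and 3), and the other 2 carried the siRNA against *Itgb6* (si-*Itgb6*, replicates 1 and 3). No si-NC replicate 1 and no si-*Itgb6* replicate 2 is among the samples. The paper's methods say that the samples were optimized after a cluster analysis, without saying whether libraries were left out. Such a choice could make the groups look more separate, and its part in the differences was not tested. The comparison asked which transcripts differed when the beta subunit of integrin alpha-v beta-6 was targeted, and the 4 libraries came from one cell line.

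Phospholipases C cut phosphatidylinositol bisphosphate in the plasma membrane into a soluble messenger, inositol trisphosphate (IP3), and a lipid messenger, diacylglycerol. IP3 opens receptor channels of the endoplasmic reticulum and releases calcium, and IP3 kinases end that signal by adding a phosphate to it. Diacylglycerol recruits protein kinase C and related proteins, and diacylglycerol kinases convert it to phosphatidic acid, from which phosphatidylinositol is rebuilt. In the proximal tubule this cycle links hormone receptors and receptor tyrosine kinases to the transport of sodium and phosphate.

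The libraries held 16205234 and 17220286 estimated counts in si-NC and 15435080 and 16693522 in si-*Itgb6*. The *Itgb6* transcript did not separate the groups. It had 17.5 and 16.4 CPM (counts scaled to library size) in si-NC and 18.0 and 15.8 in si-*Itgb6*, a log2 fold change of -0.01 (SE 0.13; adjusted p = 0.991, edgeR quasi-likelihood test). Group names below are thus the labels of the libraries. The paper reports less integrin protein by western blot in hypoxic TKPTS cells with the *Itgb6* siRNA, and names qPCR as another check of it. Protein was not measured in these libraries. Of 13 proximal tubule markers 9 had counts, and 7 passed the filter on low counts. *Slc34a1*, *Slc5a2*, *Slc22a6* and *Slc22a8* were at 0 in all 4 libraries. *Hnf4a* had at most 1 count in a library and *Lrp2* had 2 to 17, while *Pax8* and *Havcr1* were the highest of the 13. The labels do not state that replicates were separate cultures, so p-values measure the spread between these libraries only. In bulk RNA, fewer cells that hold a transcript and less of it in each cell cannot be told apart.

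Of the 10 genes, 7 were lower and 3 higher in si-*Itgb6*. *Itpkb*, *Itpkc*, *Plcb3*, *Plcg1*, *Plcg2*, *Dgkd* and *Dgkz* had lower CPM in both of those libraries than in either si-NC library, and *Itpka*, *Dgke* and *Pikfyve* had higher CPM. Of all genes tested, 25.4% lay lower without overlap of the groups and 23.8% lay higher. At an unadjusted p under 0.05 with a fold change over 1.2, 6 of the 10 were called lower and 3 higher, where 5.2% and 4.37% of all genes tested were called. At an adjusted p under 0.05, *Plcb3* was called lower and *Itpka* higher, where 2.52% and 2.11% of all genes were. The median log2 fold change of the 10 genes was -0.31, and that of all genes tested was 0.0. Since this contrast chose the genes, nothing further is read from these shares.

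**Figure D1:**
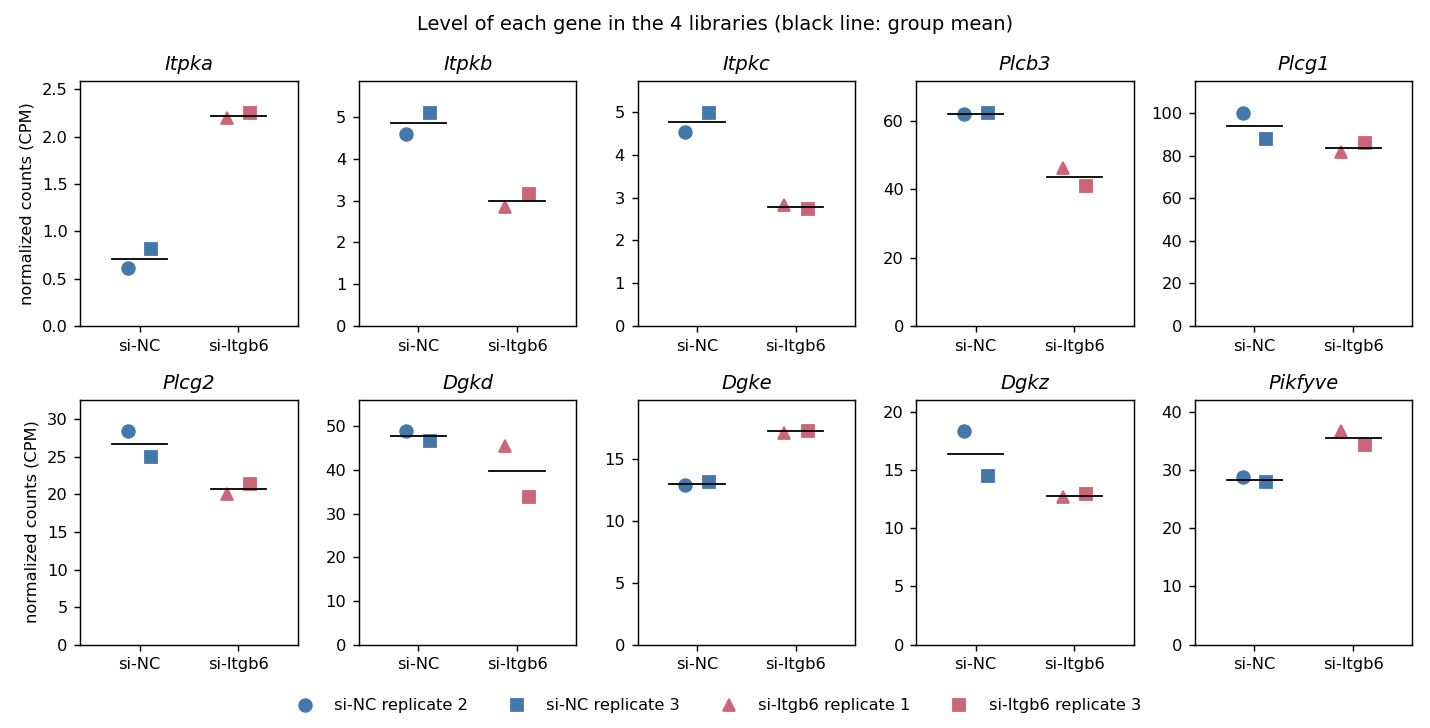
Normalized counts (CPM) of each of the 10 genes in the 4 libraries, on a linear axis from 0, with points for libraries (symbols give the replicate), blue for si-NC, red for si-Itgb6 and a black line for the mean of each group. The 2 groups do not overlap in any panel, with *Itpka*, *Dgke* and *Pikfyve* higher in si-Itgb6 and the other 7 genes lower, and *Dgkd* has the widest spread within groups on the log2 scale, with 45.5 and 33.8 CPM in si-Itgb6.

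The promoters of the IP3 3-kinases and of *Plcb3* are shown here because these 4 genes had the 4 largest differences and the 3 kinases did not move the same way. Each window holds 250 bases before and 50 bases after a transcript start of the RefSeq annotation (GRCm38.p6), and is written along the strand of its gene. Capitals mark matches, on either strand, to the core of the hypoxia response element (ACGTG), to the TEAD motif (GGAATG) or to the AP-1 motif (TGANTCA). The windows are chr2:119742087-119742386 (plus strand) for *Itpka*, chr1:180330226-180330525 (plus strand) for *Itpkb*, chr7:27228568-27228867 (minus strand) for *Itpkc* and chr19:6969765-6970064 (minus strand) for *Plcb3*.
Itpka: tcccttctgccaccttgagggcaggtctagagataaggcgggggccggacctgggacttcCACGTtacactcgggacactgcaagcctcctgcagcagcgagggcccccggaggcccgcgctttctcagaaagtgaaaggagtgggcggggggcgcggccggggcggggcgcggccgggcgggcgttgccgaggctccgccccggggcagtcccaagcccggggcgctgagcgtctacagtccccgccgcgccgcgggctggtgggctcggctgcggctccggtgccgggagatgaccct
Itpkb: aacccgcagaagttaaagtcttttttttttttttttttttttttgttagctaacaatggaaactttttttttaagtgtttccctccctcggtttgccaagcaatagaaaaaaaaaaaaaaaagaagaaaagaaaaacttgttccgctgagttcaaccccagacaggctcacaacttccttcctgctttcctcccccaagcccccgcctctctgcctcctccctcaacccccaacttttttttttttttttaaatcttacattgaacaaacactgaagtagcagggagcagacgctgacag
Itpkc: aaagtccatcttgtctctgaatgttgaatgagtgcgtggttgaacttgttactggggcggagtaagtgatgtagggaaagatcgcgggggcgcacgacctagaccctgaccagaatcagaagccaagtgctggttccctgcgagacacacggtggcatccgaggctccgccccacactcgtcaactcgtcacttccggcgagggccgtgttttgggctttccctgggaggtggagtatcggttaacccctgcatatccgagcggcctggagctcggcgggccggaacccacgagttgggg
Plcb3: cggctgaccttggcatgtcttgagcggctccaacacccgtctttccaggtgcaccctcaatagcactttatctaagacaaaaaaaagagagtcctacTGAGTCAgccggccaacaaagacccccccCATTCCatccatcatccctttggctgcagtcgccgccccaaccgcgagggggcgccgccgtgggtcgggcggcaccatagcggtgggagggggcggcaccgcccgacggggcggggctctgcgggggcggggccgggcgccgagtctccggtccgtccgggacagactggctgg

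The *Itpka* window held 1 ACGTG match, read as CACGT, and had a GC content of 73.7%. The *Itpkb* window had a GC content of 39.3%, with long runs of T and A, and the *Itpkc* window had 59.3%. Neither held any of the 3 motifs. The *Plcb3* window held 1 GGAATG match, read as CATTCC, and 1 AP-1 match, read as TGAGTCA. It lies inside the *Plcb3* locus of the GENCODE annotation, which reaches upstream to 6976470, so starts further upstream were not covered. The windows of *Dgke* and *Dgkz* also lie inside their loci. All 10 genes matched the promoter table by symbol, with 11 windows, since *Dgkz* had 2. ACGTG was found for *Itpka*, *Plcg2* and *Dgkz*, 3 of the 10 genes, and in 19.6% of all 32851 promoter windows of the same length. GGAATG and TGANTCA were found for *Plcb3* alone among the 10 genes, and in 14.7% and 7.8% of all windows. A match of a few letters is a description of the sequence and does not show that a factor binds there.

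*Itpka*, *Itpkb* and *Itpkc* encode kinases that add a phosphate to IP3, and the *Itpka* product also binds and bundles actin filaments. These 3 transcripts are of low level here, and other kinases that can act on IP3 are not covered by them. *Itpka* (ENSMUSG00000027296; chromosome 2, 119742337 to 119751263, plus strand of GRCm38) had 10 and 14 counts in si-NC and 34 and 37 counts in si-*Itgb6*, or 0.613 and 0.811 CPM against 2.2 and 2.25 CPM. The si-*Itgb6* libraries were close to each other and both were well above si-NC. The means were 0.712 ± 0.14 CPM and 2.22 ± 0.0359 CPM (SD, n = 2 each), a log2 fold change of 1.63 (SE 0.45), or 3.09-fold. With 10 and 14 counts in si-NC, the size of this difference is known only roughly, and it ran from 1.45 to 1.85 as each library was left out.

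*Itpkb* and *Itpkc* lay the other way. *Itpkb* (ENSMUSG00000038855; chromosome 1, 180330485 to 180424802, plus strand), whose product is best known in the development of lymphocytes, had 75 and 88 counts in si-NC and 44 and 52 counts in si-*Itgb6*. Its level was 4.85 ± 0.351 CPM against 3.0 ± 0.223 CPM (SD, n = 2 each), with both si-*Itgb6* libraries below both si-NC libraries and a log2 fold change of -0.69 (SE 0.26). Its exons overlap Gm5069 on the opposite strand by 66 bases, with no 75-base window in common. *Itpkc* (ENSMUSG00000003752; chromosome 7, 27207172 to 27228661, minus strand) had 74 and 86 counts in si-NC and 44 and 45 counts in si-*Itgb6*. That is 4.76 ± 0.312 CPM against 2.79 ± 0.0774 CPM, again without overlap, and a log2 fold change of -0.77 (SE 0.27). *Itpkc* shares 1273 exon bases with BC024978 on the opposite strand, and 22.73% of its 75-base windows were found in that gene. Its estimated count was not whole in any library. BC024978 had 60 and 76 counts in si-NC and 62 and 43 counts in si-*Itgb6*, where the groups overlapped. The libraries carry no strand information, so reads of the shared bases cannot be told apart and the *Itpkc* counts are uncertain to that extent.

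The shares of these 3 transcripts in their sum differed between the groups. By FPKM, the authors' value per transcript length, *Itpka* made up 13.6% and 16.0% of the 3 kinases in si-NC and 47.6% and 47.8% in si-*Itgb6*. The share of *Itpkb* was 29.8% and 29.3% in si-NC against 18.0% and 19.6%, and that of *Itpkc* was 56.5% and 54.7% against 34.4% and 32.5%. *Itpkc* was thus the largest of the 3 in both si-NC libraries and *Itpka* in both si-*Itgb6* libraries. The sum over the 3 genes did not follow the groups, at 2.49 and 2.8 FPKM in si-NC and 2.54 and 2.55 FPKM in si-*Itgb6*. These shares rest on the low counts given above.

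The phospholipases C *Plcb3*, *Plcg1* and *Plcg2* were all lower in si-*Itgb6*. *Plcb3* (ENSMUSG00000024960; chromosome 19, 6952325 to 6976470, minus strand), the isoform driven by Gq-coupled receptors and by G protein beta-gamma subunits, had 1011 and 1077 counts in si-NC and 718 and 674 counts in si-*Itgb6*. In CPM these were 62.0 and 62.4 against 46.4 and 40.9. The si-NC libraries were almost equal, and both si-*Itgb6* libraries lay well below them. The means of 62.2 ± 0.257 CPM and 43.7 ± 3.85 CPM (SD, n = 2 each) gave a log2 fold change of -0.51 (SE 0.09), or 1.42-fold lower. Its exons overlap those of *Ppp1r14b* on the opposite strand by 22 bases, with no 75-base window in common.

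*Plcg1* and *Plcg2* encode the gamma isoforms, which are switched on by tyrosine phosphorylation downstream of growth factor receptors and, for *Plcg2*, mainly of immune receptors. *Plcg1* (ENSMUSG00000016933; chromosome 2, 160731300 to 160775760, plus strand) had 1635 and 1514 counts in si-NC and 1263 and 1412 counts in si-*Itgb6*. The corresponding values of 100 and 87.7 CPM against 81.6 and 85.8 CPM did not overlap, but the gap between the nearest libraries was small next to the spread within si-NC. The log2 fold change was -0.17 (SE 0.07), or 1.12-fold, so *Plcg1* was the gene of the 10 that did not reach the fold threshold. The value was -0.07 when si-NC replicate 2 was left out. *Plcg1* overlaps Gm27206 and *Zhx3* on the opposite strand by 627 exon bases in total, and 1.59% of its 75-base windows were found in them. *Plcg2* (ENSMUSG00000034330; chromosome 8, 117498291 to 117635142, plus strand) had 463 and 432 counts in si-NC and 310 and 352 counts in si-*Itgb6*. Its means were 26.7 ± 2.39 CPM and 20.7 ± 0.956 CPM (SD, n = 2 each), with a log2 fold change of -0.37 (SE 0.12).

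Because *Plcg2* and *Itpkb* are known best from blood cells, markers of macrophages and leukocytes were read beside them. The 6 markers summed to 132 and 141 CPM in si-NC and 127 and 121 CPM in si-*Itgb6*, nearly all of it from *Cd68* and *Csf1r*. *Ptprc*, the general leukocyte marker, had 3 counts and 1 count in si-NC and 0 and 6 counts in si-*Itgb6*, and *Adgre1* had 0 counts in 3 of the 4 libraries. The 5 fibroblast markers summed to between 3.19 and 4.85 CPM and the 4 endothelial markers to between 2.71 and 4.31 CPM. The part of other cells in the differences was not tested.

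The diacylglycerol kinases were split, with *Dgkd* and *Dgkz* lower and *Dgke* higher in si-*Itgb6*. *Dgkd* (ENSMUSG00000070738; chromosome 1, 87853287 to 87945180, plus strand) had 795 and 804 counts in si-NC and 704 and 557 counts in si-*Itgb6*. As 48.8 and 46.6 CPM against 45.5 and 33.8 CPM, its difference came mainly from si-*Itgb6* replicate 3, while replicate 1 lay just below si-NC. The log2 fold change of -0.27 (SE 0.1) became -0.06 without si-*Itgb6* replicate 3 and -0.49 without si-*Itgb6* replicate 1. The *Dgkd* result therefore rests on that single library.

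*Dgke* (ENSMUSG00000000276; chromosome 11, 89035179 to 89066850, minus strand) encodes the smallest of the enzymes, which prefers diacylglycerol with an arachidonoyl chain, the form released from phosphatidylinositol bisphosphate, and whose loss causes a thrombotic kidney disease. It had 210 and 226 counts in si-NC and 265 and 283 counts in si-*Itgb6*. Replicates were nearly identical, at 12.9 and 13.1 CPM in si-NC and 17.1 and 17.2 CPM in si-*Itgb6*. The means of 13.0 ± 0.147 CPM and 17.2 ± 0.0484 CPM (SD, n = 2 each) gave a log2 fold change of 0.40 (SE 0.13), which stayed between 0.39 and 0.42 as each library was left out. The *Dgke* difference was smaller on the log2(FPKM + 0.1) scale, at 0.24. *Dgkz* (ENSMUSG00000040479; chromosome 2, 91932824 to 91975864, minus strand), a nuclear and cytoplasmic isoform, had 299 and 251 counts in si-NC and 197 and 212 counts in si-*Itgb6*. Its levels were 18.3 and 14.5 CPM against 12.7 and 12.9 CPM, so that si-NC replicate 2 stood above the other 3 libraries. The log2 fold change of -0.36 (SE 0.14) was -0.18 without that library. *Dgkz* shares 222 exon bases with Gm9821 on the opposite strand, and 2.29% of its 75-base windows. Also on the opposite strand, *Dgke* shares 100 exon bases with Dgkeos, and *Dgkd* 172 in total with Gm19582 and *Usp40*. Of their 75-base windows, 0.38% and 0.51% were found in other genes.

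*Pikfyve* (ENSMUSG00000025949; chromosome 1, 65186683 to 65278695, plus strand) encodes the lipid kinase that makes a phosphatidylinositol bisphosphate on endosomes and lysosomes, in a complex with the scaffold VAC14 and the phosphatase FIG4. It had 470 and 481 counts in si-NC and 567 and 563 counts in si-*Itgb6*. Its level was 28.3 ± 0.686 CPM against 35.4 ± 1.72 CPM (SD, n = 2 each), higher in both si-*Itgb6* libraries, and its log2 fold change was 0.32 (SE 0.1). The partner genes gave -0.05 for *Vac14* (SE 0.07; adjusted p = 0.795, edgeR) and 0.06 for *Fig4* (SE 0.13; adjusted p = 0.868, edgeR), both smaller than their SE. *Fig4* overlapped between the groups, while *Vac14* lay just lower in si-*Itgb6*, at 76.3 and 72.7 CPM against 71.8 and 72.5 CPM.

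Levels of different genes were compared by FPKM, which divides by transcript length. *Plcg1* was highest at 20.5 ± 4.63 FPKM (SD over the 4 libraries), followed by *Plcb3* at 12.5 ± 2.64, *Dgkd* at 8.77 ± 1.54 and *Plcg2* at 5.52 ± 0.907 FPKM. *Dgkz* had 4.12 ± 0.741, *Pikfyve* 3.87 ± 0.328 and *Dgke* 2.43 ± 0.244 FPKM. The IP3 3-kinases were the lowest, with 1.16 ± 0.36 FPKM for *Itpkc*, 0.804 ± 0.477 for *Itpka* and 0.63 ± 0.178 for *Itpkb*. The libraries of *Plcg1* lay above all those of *Plcb3*, those of *Dgkd* above *Plcg2*, those of *Pikfyve* above *Dgke* and those of *Dgke* above *Itpkc*. The other neighbours in this order had overlapping ranges. The order of the 10 genes was the same when CPM was divided by the length of the longest reference transcript.

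**Figure D2:**
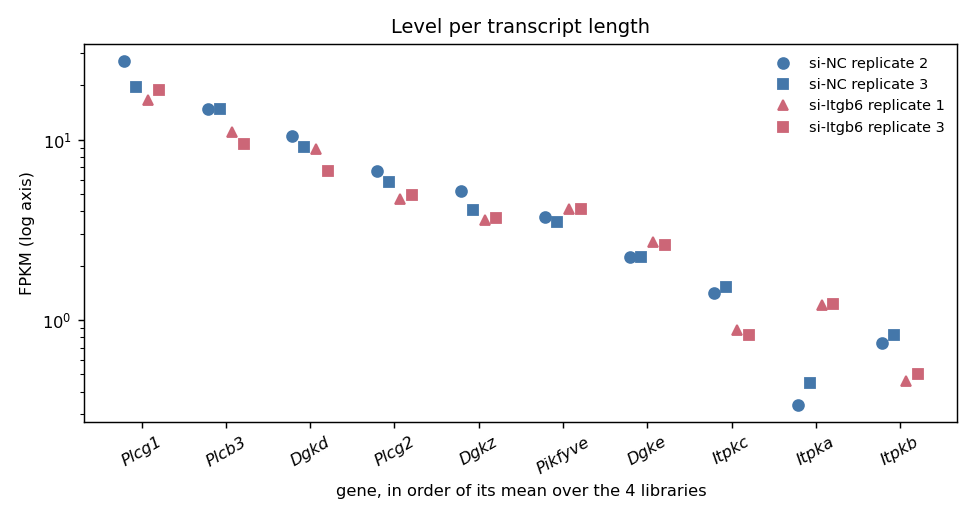
FPKM of the 10 genes in each library on a log axis, in the order of their means, with blue symbols for si-NC and red symbols for si-Itgb6. The genes span from 20.5 FPKM for *Plcg1* down to 0.63 FPKM for *Itpkb*, and *Itpka* moves from the lowest place in both si-NC libraries to above *Itpkb* and *Itpkc* in both si-Itgb6 libraries.

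FPKM and CPM gave different sizes for some of these genes. Dividing count by FPKM gives the transcript length, in bases, that the authors' values imply in each library. For *Plcg1* that length was 3716 and 4490 bases in si-NC and 4974 and 4503 bases in si-*Itgb6*, a ratio of 1.34 between the largest and the smallest. The shortest was in si-NC replicate 2, the library with the highest *Plcg1* count. On the log2(FPKM + 0.1) scale *Plcg1* consequently had a difference of -0.39, against -0.17 from the counts. *Dgke* had 0.24 on that scale against 0.40 from the counts, and *Pikfyve* had 0.20 against 0.32. The ratio was 1.14 for *Pikfyve*, 1.12 for *Dgke*, 1.09 for *Dgkd* and at most 1.03 for the other 6. Among 8859 genes with at least 100 counts the median ratio was 1.02, and 22.1% of them exceeded 1.1. *Plcg1*, *Pikfyve*, *Dgkd* and *Dgke* have 12, 11, 7 and 3 annotated transcripts, and whether isoforms shifted was not tested.

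Within their families these genes were not all the main transcripts. *Plcd3* was the highest phospholipase C by its mean over the 4 libraries, 22.9 FPKM, although *Plcg1* was above it in si-NC replicate 2, and its log2 fold change was -0.11 (SE 0.08; adjusted p = 0.497, edgeR). It made up 29.2% to 33.1% of the family's FPKM, *Plcg1* 25.3% to 33.5%, *Plcb3* 14.4% to 19.1% and *Plcg2* 7.2% to 8.2%. The family summed to 81.0 and 77.1 FPKM in si-NC and 64.9 and 66.0 FPKM in si-*Itgb6*, without overlap. This sum includes *Plcb3*, *Plcg1* and *Plcg2*, which were chosen from this contrast and were lower in si-*Itgb6*. It therefore does not describe the rest of the family. Among the diacylglycerol kinases *Dgkd* took the largest share, 41.2% and 40.2% in si-NC and 39.1% and 32.7% in si-*Itgb6*. *Dgkz* had 15.7% to 20.4% and *Dgke* had 8.76% and 9.86% in si-NC against 11.9% and 12.6%. The sum over diacylglycerol kinases was 25.3 and 22.6 FPKM in si-NC and 22.7 and 20.5 FPKM in si-*Itgb6*, and the groups overlapped. Of the 11 inositol phosphate kinases, *Itpk1* was highest in both si-NC libraries, at 37.5 and 38.0 FPKM against 34.8 and 35.5 FPKM for *Ipmk*. *Ipmk* was highest in both si-*Itgb6* libraries, at 37.6 and 36.0 FPKM against 33.9 and 33.7 FPKM for *Itpk1*, and the 3 IP3 3-kinases together were a small part of a sum of 120 to 130 FPKM.

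The rest of these families was read in the same fit. Of the other inositol phosphate kinases 7 were tested, of the other phospholipases C 6 and of the other diacylglycerol kinases 3, and edgeR called 0 of these 16 genes by either rule. Over all genes the first rule called 5.2% lower and 4.37% higher. Every gene of these families called by either rule was among the 10 described, which this contrast chose. The 0 of 16 follows in part from that choice and is not read as a result. At an unadjusted p under 0.05, edgeR gave 1 lower, *Itpk1* at -0.15 (SE 0.07; adjusted p = 0.227), and 0 higher, DESeq2 gave 0 and limma on FPKM gave 1 lower. Across 136 listed genes of the pathway without the 10 described, 105 were tested. At an unadjusted p under 0.05 with a fold change over 1.2, 7 were lower and 0 higher in si-*Itgb6*. Whatever the fold, 13 were lower and 1 higher at an unadjusted p under 0.05 by edgeR, 8 and 1 by DESeq2, and 10 or 11 and 0 by limma on FPKM, depending on the pseudocount. Over all 11727 genes tested, edgeR gave 1128 lower and 1032 higher by that p. At an adjusted p under 0.05, 5 were lower and 1 higher. The median log2 fold change of the 105 genes was -0.02, against 0.0 over all genes tested, and 31 were lower and 25 higher without overlap of the groups. Over all genes tested, 2.52% were lower and 2.11% higher by the adjusted p. Without overlap of the groups, 25.4% of all genes lay lower and 23.8% higher.

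**Figure D3:**
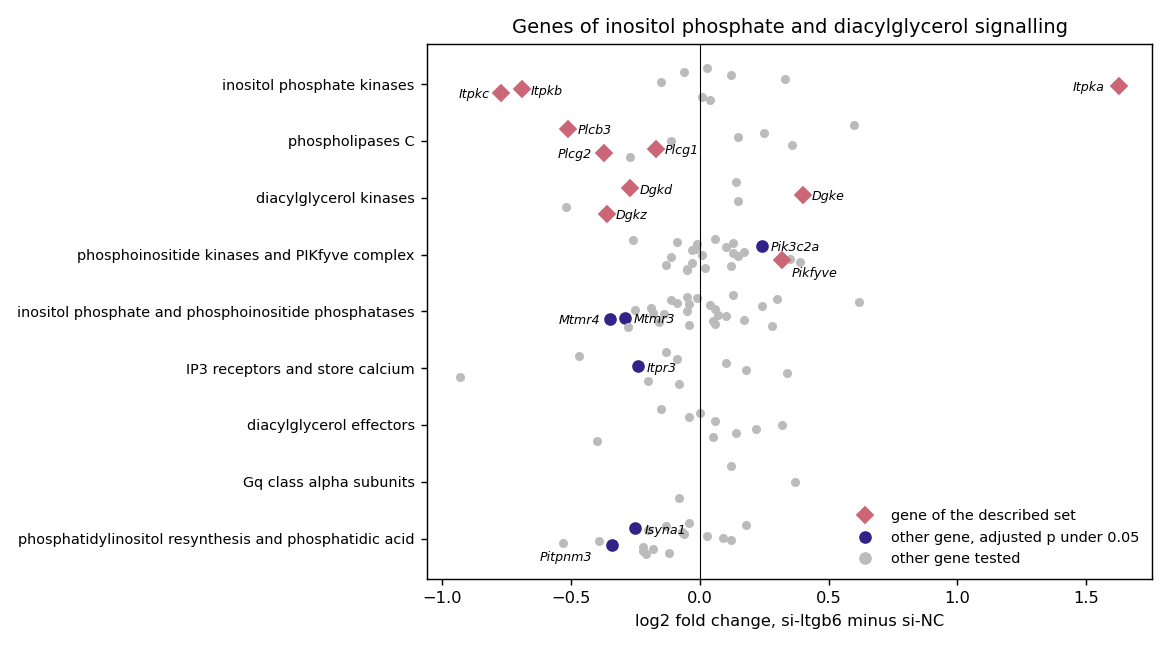
Log2 fold change, si-Itgb6 minus si-NC, of every tested gene in 9 lists of inositol phosphate and diacylglycerol signalling, with 1 point per gene, pink diamonds for the 10 genes described, dark blue circles for other genes with an adjusted p under 0.05 (edgeR) and grey circles for the rest. Most other genes lie between -0.5 and 0.5, *Itpka* stands alone at 1.63, and 5 of the 6 dark blue points are below 0.

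Among genes downstream of IP3 and in lipid supply, the differences that passed the test were small. *Itpr3*, an IP3 receptor channel and the target of the messenger, fell from 2852 and 2865 counts to 2236 and 2366 counts, a log2 fold change of -0.24 (SE 0.06; adjusted p = 0.0156, edgeR). The other receptors gave -0.09 for *Itpr1* (adjusted p = 0.803) and 0.10 for *Itpr2* (adjusted p = 0.518, edgeR). Of the 10 tested genes for IP3 receptors and store calcium, *Itpr3* was thus the gene past the adjusted threshold. *Orai3*, a calcium entry channel, was called by the fold rule with 39 and 37 counts against 15 and 23 (log2 fold change -0.93, SE 0.41; adjusted p = 0.21, edgeR). *Atp2a2*, the calcium pump of the endoplasmic reticulum, was the highest of the list at 44.4 FPKM, with a log2 fold change of -0.13 (SE 0.07).

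In phosphatidylinositol resynthesis, 18 genes were tested, 14 lay below 0, 3 were called lower and 0 higher by the fold rule, and the median log2 fold change was -0.155. By unadjusted p alone edgeR gave 5 lower and 0 higher. Over all 11727 genes tested, 5858 lay below 0, 610 were called lower and 512 higher, and the median was 0.0. *Isyna1*, which makes inositol phosphate from glucose phosphate, fell by 0.25 on the log2 scale (SE 0.06; adjusted p = 0.0231, edgeR), from 130 and 125 CPM to 108 and 107 CPM. *Pitpnm3*, of the membrane-associated phosphatidylinositol transfer protein family, fell by 0.34 (SE 0.1; adjusted p = 0.0499, edgeR). Its value was -0.18 without si-*Itgb6* replicate 3 and -0.51 without si-*Itgb6* replicate 1, and its adjusted p was 0.0651 with RLE factors, 0.0644 with library size only and 0.146 with DESeq2. Its relatives *Pitpnm1*, at -0.39 (adjusted p = 0.0625), and *Pitpnm2*, at -0.53 (adjusted p = 0.13, edgeR), missed the adjusted threshold. *Pitpna*, the highest of the list by its mean of 77.1 FPKM over the 4 libraries, although *Plpp2* was above it in si-NC replicate 3, had a log2 fold change of 0.03 (SE 0.06).

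Among 27 phosphatases tested, 2 lipid phosphatases of the myotubularin family, which remove a phosphate from phosphoinositides of endosomes, were lower. *Mtmr4* fell by 0.35 on the log2 scale (SE 0.09; adjusted p = 0.0213, edgeR) and *Mtmr3* fell by 0.29 (SE 0.08; adjusted p = 0.0303, edgeR). The value of *Mtmr3* was -0.18 without si-NC replicate 2, and DESeq2 gave an adjusted p of 0.0703 for it and 0.0614 for *Mtmr4*. *Mtmr2*, the highest at 35.6 FPKM, was at 0.10 (SE 0.07). Of 22 phosphoinositide kinases and partners other than *Pikfyve*, *Pik3c2a*, a class II phosphoinositide kinase, rose by 0.24 (SE 0.07; adjusted p = 0.0266, edgeR). *Pi4k2a* was called lower by the fold rule at -0.26 (adjusted p = 0.157, edgeR), and *Pip4k2c*, the highest by its mean of 24.8 FPKM over the 4 libraries, although *Vac14* was above it in si-*Itgb6* replicate 3, was at -0.13 (SE 0.07). *Pitpnm1*, *Pitpnm2*, *Pi4k2a*, *Orai3*, *Itpk1*, *Itpr1*, *Itpr2*, *Plpp2*, *Vac14* and *Fig4* are named here after their values were seen. Of 9 diacylglycerol effectors and 3 Gq class alpha subunits tested, edgeR called 0 by either rule, and edgeR, DESeq2 and limma on FPKM each gave 0 at an unadjusted p under 0.05. *Prkca*, the highest effector at 19.8 FPKM, was at -0.04 (SE 0.07), and *Gna11*, which couples receptors to *Plcb3*, was at 0.12 (SE 0.08) with 14.1 FPKM. After removal of GC and length trends, the adjusted p was above 0.05 for all 6 genes that had passed, from 0.0502 for *Mtmr4* to 0.392 for *Isyna1*. The log2 fold change was then -0.33 for *Mtmr4*, -0.24 for *Mtmr3*, -0.23 for *Pitpnm3*, -0.14 for *Itpr3*, -0.11 for *Isyna1* and 0.12 for *Pik3c2a*. Without si-NC replicate 2 the adjusted p was between 0.371 and 0.599 for the 6 genes. Apart from *Mtmr3* their values changed little in that fit, with -0.31 for *Mtmr4*, -0.34 for *Pitpnm3*, -0.20 for *Itpr3*, -0.22 for *Isyna1* and 0.24 for *Pik3c2a*.

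The GC content of the transcript moved with the size of the difference over all genes, with a Spearman's rho of -0.364 over 11709 genes, which are not independent. *Pikfyve* and *Dgke*, both higher in si-*Itgb6*, had 43.7% and 46.2% GC, below the median of 49.8% over genes tested. The 7 lower genes had 52.3% to 59.6%. *Itpka*, with 61.1%, had the highest GC content of the 10 and was the exception, being higher in si-*Itgb6*. The genes within 1 percentage point of it had a median log2 fold change of -0.13, and those around *Pikfyve* and *Plcb3* had 0.06 and -0.10. With GC and length trends removed from each library, the log2 fold change was 1.76 for *Itpka*, -0.59 for *Itpkb*, -0.66 for *Itpkc*, -0.39 for *Plcb3*, -0.28 for *Plcg2* and -0.09 for *Plcg1*. It was -0.22 for *Dgkd*, 0.37 for *Dgke*, -0.21 for *Dgkz* and 0.24 for *Pikfyve*. Every sign was kept, all but *Itpka* were closer to 0, and 4 of the 10 were then called lower and 2 higher. Over all 11727 genes tested, that fit called 421 lower and 421 higher by the same rule.

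**Figure D4:**
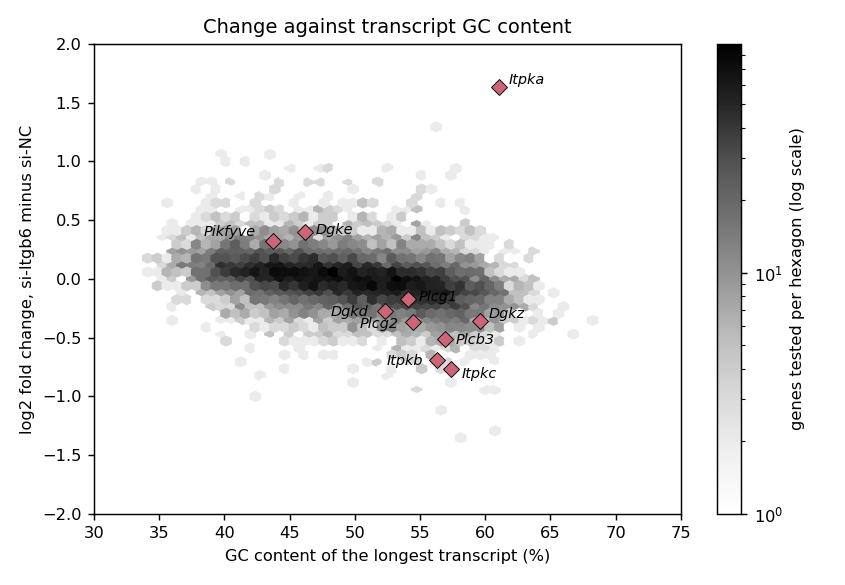
Log2 fold change, si-Itgb6 minus si-NC, against the GC content of the longest reference transcript in percent, with grey hexagons for the number of genes tested (log scale) and pink diamonds for the 10 genes. *Itpka* stands apart at 61.1% GC and 1.63, while *Itpkb*, *Itpkc*, *Plcb3* and *Dgkz* lie below 0 at 56.3% to 59.6% GC.

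No sign changed for any of the 10 genes in 12 other settings, of which 4 each left out 1 library. The groups did not overlap for any of these genes, which this contrast chose. Leaving out 1 library could thus hardly turn a sign, and those 4 fits show only how far the size moved. The other settings used the same 4 libraries that chose the genes, so the signs kept there are no further support. *Itpkc* kept between -0.84 and -0.70 as libraries were left out, *Itpkb* between -0.77 and -0.61, *Plcb3* between -0.60 and -0.42, *Plcg2* between -0.45 and -0.27 and *Pikfyve* between 0.27 and 0.37. *Dgkd*, *Dgkz* and *Plcg1* came closest to 0 among these fits, as given above. On the log2(FPKM + 1) scale, which shrinks low genes, *Itpka* had 0.67, *Itpkb* -0.27, *Itpkc* -0.41, *Dgke* 0.18 and *Pikfyve* 0.16.

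**Figure D5:**
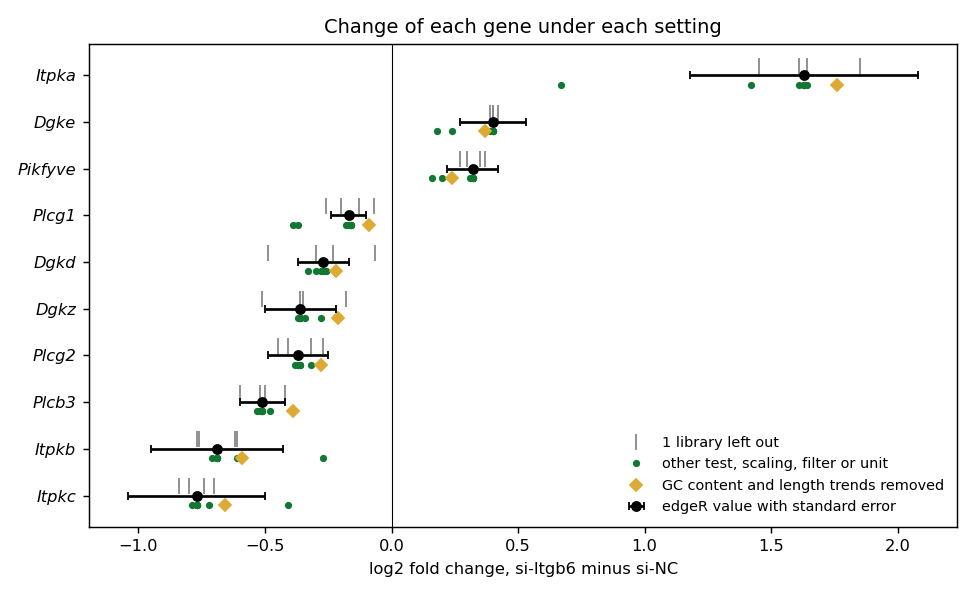
Log2 fold change, si-Itgb6 minus si-NC, of each gene, with black points for the edgeR value and bars for its standard error, grey ticks for fits without 1 library, green points for another test, scaling, filter or unit, and gold diamonds for GC content and length trends removed. Points of 1 gene stay on 1 side of 0, those of *Dgkd* reach from -0.49 to -0.06, and *Itpka* spreads from 0.67 to 1.85.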

How the data were processed

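RNA was measured in 4 libraries of hypoxic TKPTS cells, 2 labelled si-NC and 2 labelled si-*Itgb6*, by paired sequencing of polyadenylated RNA without strand information. The authors deposited estimated counts per gene, not normalized, with decimals for 1447 to 1500 genes per library, and FPKM values made by them. The aligner, counting tool and genome build were not given in the sources used here. The genes described and the lists of other pathway genes and markers were chosen with earlier results of these data known.

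Estimated counts were rounded to whole numbers and filtered by filterByExpr of edgeR (at least 10 counts, and 15 in total), which kept 11727 of 22063 genes. Libraries were scaled by TMM (factors 0.9867 to 1.007) and compared with edgeR 4.0.16 (quasi-likelihood F test, R 4.3.3), and p-values were adjusted over all genes tested by the Benjamini-Hochberg method. The common biological coefficient of variation was 0.0551. The first call rule, with a fold change over 1.2 and an unadjusted p under 0.05, follows the study's methods. FPKM was used for levels and, with limma 3.58.1, as an alternative on the log2(FPKM + 0.1) and log2(FPKM + 1) scales. DESeq2 1.42.0 was another alternative. The others were RLE factors, library size only, no filter, at least 10 counts in every library, GC content and length trends removed, a fold change over 1.5 and leaving out each library. The scripts were tested on simulated data.

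Loci, exon overlaps and transcript GC content came from GENCODE vM21 (GRCm38), which held 99.6% of the genes listed and may not be the authors' annotation. Promoters were those of RefSeq. Protein identity within families was planned but not computed, since no protein sequences were used here. The rule for named genes took the 10 chosen, *Itgb6*, other genes of the pathway lists with an adjusted p under 0.05 and the highest gene of each such list by mean FPKM. Marker genes, overlapping genes and the pathway genes marked as such in the report were named outside that rule, after their values were seen. Precision is set by depth, 15435080 to 17220286 counts per library, and by 2 libraries per group.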

Additional observations from a re-analysis of the deposited data

How the results depend on the processing

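Of 11727 genes, 610 were called lower and 512 higher. DESeq2 gave 383 and 320, and a fold change over 1.5 gave 110 and 125. As each library was left out the counts ran from 402 to 770 and from 338 to 645. The adjusted rule gave 295 lower and 247 higher, 105 and 112 with GC content and length trends removed, 156 and 146 with DESeq2, and 0 and 0 with limma on FPKM at either pseudocount, where an unadjusted p under 0.05 was reached by 1035 and 663 genes with 0.1 and by 1031 and 669 with 1. Without si-NC replicate 2 it gave 6 and 8, without si-NC replicate 3 it gave 115 and 108, and the ranges over libraries left out were 6 to 413 and 8 to 363. Calls made by adjusted p thus depend on both si-NC libraries.

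Of the 10 genes, 6 were called lower and 3 higher. DESeq2 called 3 lower and 3 higher, and a fold change over 1.5 called 2 lower and 1 higher. With limma on FPKM, 4 were called lower and 1 higher at either pseudocount. Over all genes tested, limma on FPKM called 615 lower and 414 higher with 0.1, and 584 and 392 with 1. Fewer of the 10 were called lower in each fit that left out a library. For the other pathway genes, 7 lower and 0 higher became 2 and 3 with GC content and length trends removed, 4 lower with DESeq2, 1 lower with a fold change over 1.5, and 4 to 11 lower and 1 to 5 higher as a library was left out, 4 lower without si-NC replicate 2 and 11 without si-NC replicate 3. *Itgb6* ranged from -0.10 to 0.091 on the log2 scale as a library was left out, and turned to 0.038 without si-NC replicate 2 and to 0.091 without si-*Itgb6* replicate 3. Both other scalings and both other filters kept these counts within 1.5-fold, and the cause of the changes was not tested. No paired analysis was possible because the groups share only 1 replicate number. A fit that leaves out a library leaves its group with 1 sample, assumed to vary like the other group. Counts of 10 to 88 limit what can be said of *Itpka*, *Itpkb* and *Itpkc*.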

Other observations

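Of the 5 fibroblast markers, *Pdgfrb* had 52 and 55 counts in si-NC and 35 and 47 counts in si-*Itgb6*, without a difference past the threshold (adjusted p = 0.643, edgeR). In si-*Itgb6* replicate 1 *Col1a1* had 22 counts and *Col1a2* 11 counts, against 0 and 1 count of *Col1a1* in si-NC and 2 counts in si-*Itgb6* replicate 3. *Lyz2* had 11 counts in the same library and 0 in the other 3. *Aqp1*, the water channel of the proximal tubule, was higher in si-*Itgb6*, by 0.59 on the log2 scale (adjusted p = 0.000617, edgeR), and *Havcr1*, a marker of injured proximal tubule, by 0.19 (adjusted p = 0.0358, edgeR). All 5 epithelial markers had a log2 fold change below 0 and 3 had an unadjusted p under 0.05, and *Krt8*, a keratin of simple epithelia, fell by 0.20 (SE 0.05; adjusted p = 0.00881, edgeR).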
